A study of Homo sapiens with 6 samples.

Results

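The baseline described here is the transcriptome of control-transfected KGN cells, a long-established line from a human granulosa cell tumour of the ovary. Its members are the 2 libraries labelled siNC, of 6 in the series, chosen by that label alone, and every gene listed for them, 20036 in all. The series transfected wild-type KGN cells with a Lipofectamine reagent and either a negative control siRNA (siNC) or 1 of a pair of siRNAs against OGT, and total RNA was sequenced 48 hours later. The cells grew in DMEM/F12 medium with fetal bovine serum, and it is unknown whether the siNC libraries were separate cultures (not given in the sources used here). Every sample of the series was transfected, so the siNC levels describe cells that had received a transfection reagent and an siRNA, and untransfected cells were not analysed here. With 1 group and no contrast there is no test and no p-value, and each level is given for both libraries, replicate 1 before replicate 2, or as their mean ± SD with n = 2.

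Granulosa cells surround the oocyte in the ovarian follicle. In the growing follicle they respond to follicle-stimulating hormone and convert androgens to oestrogens with aromatase, and after ovulation they make progesterone from cholesterol. Their identity rests on transcription factors such as FOXL2, NR5A1 and GATA4, and they secrete inhibins, activins, follistatin and anti-Müllerian hormone. Interferons are secreted alarm proteins. Type I interferons bind the IFNAR1 and IFNAR2 receptor pair, and the kinases JAK1 and TYK2 then activate a transcription factor complex, with STAT2 and IRF9 in it, that binds a GAAA-repeat element in the promoters of interferon-stimulated genes, many of which encode antiviral proteins.

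Levels are FPKM, fragment counts divided by gene length and library total, which can be compared between genes because length is divided out. The deposited values of each library are whole reads divided by a length and a library total, and the totals worked out from them were 20152533 reads for siNC replicate 1 and 20113114 for replicate 2. The squared differences between the libraries averaged 1.95 times the variance of counting error over the 10507 genes compared (chi-square per degree of freedom). They are therefore not the same library listed again. The FPKM values summed to 200007 and 198119, so that 1 FPKM corresponds to 5.00 and 5.05 on the TPM scale.

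A mean of 1 FPKM or more was listed for 10511 of the 20036 genes (52.5%), 10 FPKM or more for 4440 (22.2%) and 100 FPKM or more for 216 (1.08%). Another 3632 genes (18.1%) were listed at 0 in both libraries. These shares over all genes are the background for the counts of list members below. The lists were chosen with earlier results of these data known, so a count above the background describes the members and is not a test. The median of the genes at 1 FPKM or more was 7.87 FPKM, and the most abundant gene stood 516 times above it. The 10 most abundant genes held 9.64% of the summed FPKM, the top 100 held 24.1%, the top 1000 held 53.4%, and 826 genes together reached 50% of it. The order was nearly the same in both libraries, which shared 98 of their top 100 genes and 24 of their top 25.

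**Figure D1:**
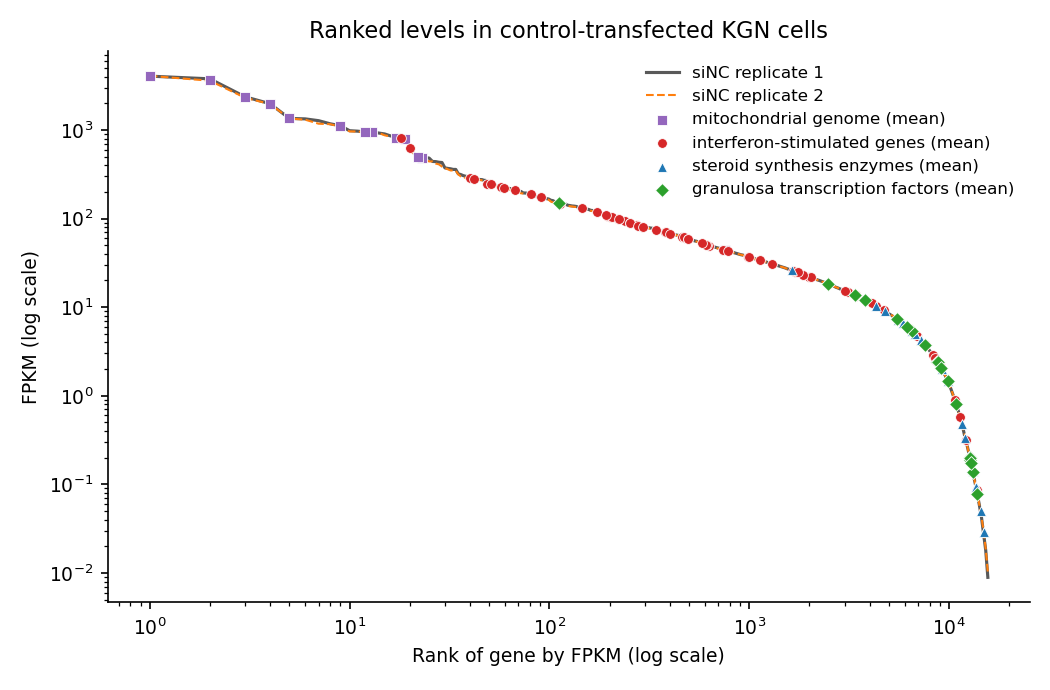
FPKM against rank of gene, both on log scales, for siNC replicate 1 (solid line) and siNC replicate 2 (dashed line), with the mean level of each member of 4 gene lists as symbols. The library curves lie on each other, 12 of the 13 mitochondrial genes stand among the top 50, interferon-stimulated genes run from rank 18 downwards, and the granulosa and steroidogenic genes lie lower, with CITED2 at rank 112 the highest of them.

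The head of the ranking belonged to the mitochondrial genome, whose 13 protein-coding genes encode core subunits of the respiratory chain and ATP synthase. MT-CO1, the catalytic subunit of cytochrome c oxidase, was listed at 4050.4 and 4083 FPKM (4067 ± 22.9), and its partner subunits MT-CO2 at 3776 and 3593 and MT-CO3 at 1978 and 1962. The complex I subunit MT-ND4 stood at 2368 and 2310.4 FPKM and cytochrome b, MT-CYB, at 1349 and 1347. Of the 13 genes 12 exceeded 100 FPKM, and the exception was MT-ATP8, 207 bases long, at 52.3 and 35.5. The mitochondrial genes took 9.58% and 9.54% of the summed FPKM but 2.01% and 1.99% of the reads, since they are short.

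Among nuclear genes B2M, the light chain of MHC class I, ranked highest. It was listed at 1334 and 1306 FPKM (1319.6 ± 19.98; ENSG00000166710, chromosome 15, 44711487 to 44718877, plus strand, GRCh38), and with 167778 and 163902 reads it took more reads than any other gene in the table. The thymosins, small proteins that sequester actin monomers, followed, with TMSB10 at 1273 and 1176 FPKM and TMSB4X at 901 and 869.8. FTL, the ferritin light chain that helps to store iron, stood at 1174 and 1162 FPKM.

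RND3, a small GTP-binding protein that opposes actin contractility, was listed at 969 and 963 FPKM (ENSG00000115963, chromosome 2, 150468195 to 150539011, minus strand). TXNIP, an inhibitor of thioredoxin and of glucose uptake, stood at 923 and 927 FPKM. For each of these the libraries differed by less than the spread over all genes given below.

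Growth-arrest genes were also among the top 25. CDKN1A, the cyclin-dependent kinase inhibitor p21, was listed at 829 and 843 FPKM (836 ± 10.04; ENSG00000124762, chromosome 6, 36676460 to 36687339, plus strand), and GADD45A, a stress-induced protein that slows division, at 546 and 537. MDM2, a ubiquitin ligase, stood at 94.3 and 98.8 FPKM and ranked 229. Other nuclear members of the top 25 were the calcium-binding protein gene S100A6 at 487 and 441 FPKM and the interferon-stimulated genes ISG15 and IFI6, described below.

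Some abundant genes outside the lists were a keratin and cancer-testis genes. KRT81, a hair keratin with near-identical neighbours among which reads could be split, was listed at 441 and 386 FPKM and ranked 29. Genes of the cancer-testis families, normally read in the male germ line, were also listed: SPANXB1 at 205 and 185 FPKM (rank 72), MAGEC2 at 152 and 147 (rank 111) and SPANXD at 133 and 118 (rank 157). The SPANX genes are near-identical copies on the X chromosome, so the division of reads among them is uncertain. These genes, KRT81 included, were chosen after their values were seen.

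Matrix and cytoskeletal genes were high as groups. Of 30 actin cytoskeleton genes, 29 were at 1 FPKM or more and 12 at 100 or more, with a median of 52.6 FPKM, beside 1.35 FPKM over all genes. Of 39 genes of the extracellular matrix and adhesion, 36 were at 1 FPKM or more, 31 at 10 or more and 10 at 100 or more, with a median of 46.9 FPKM. Among them were fibronectin, FN1, at 319.7 and 315 FPKM, the collagen gene COL1A1 at 270.3 and 258, SPARC at 244 and 233, CCN2 at 219.6 and 216 and the gelatinase gene MMP2 at 221 and 209.8. CDH2, or N-cadherin, the adhesion molecule of granulosa cells, stood at 27.5 and 27.5 FPKM against 0.0408 and 0.0573 for the epithelial cadherin CDH1. Vimentin, VIM, the filament protein of mesenchymal cells, was listed at 306 and 297 FPKM, and the simple-epithelium keratins KRT18 and KRT8 at 21.04 and 22.5, and at 5.12 and 5.17.

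Near-identical or paired abundant genes differed in level. ACTB, beta-actin, was listed at 432 and 409 FPKM and ACTG1, gamma-actin, at 269 and 270.2, a ratio of means of 1.56. TMSB10 stood 1.38 times above TMSB4X. FTL stood 6.34 times above the ferritin heavy chain gene FTH1, which was listed at 193 and 176 FPKM and of whose exonic bases 62.4% lie in an exon of another gene. How the authors counted reads that match several genes was not given in the sources used here.

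Housekeeping groups were listed at 1 FPKM or more in most members. Of 78 cytosolic ribosomal protein genes, 75 were at 1 FPKM or more and 66 at 10 or more, with a median of 44.7 FPKM and 5 among the 100 most abundant genes. RPS2 was the highest of the list at 218 and 218, and RPL41, which the list leaves out, stood above it at 368 and 349. The 3 below 1 FPKM, RPL17, RPS10 and RPL36A, had means of 0.436, 0.6001 and 0.708, with 35.3%, 39.4% and 8.401% of their exonic bases in an exon of another gene. Of 22 translation factor genes, 20 were at 1 FPKM or more, led by EEF1A1 at 275 and 275 FPKM and EEF2 at 232 and 229. GAPDH led the glycolysis genes at 314 and 299.8 FPKM, and 18 of 21 of them were at 1 FPKM or more. LDHA, the lactate dehydrogenase subunit of glycolytic tissues, stood at 133 and 129 FPKM, while LDHB, the subunit of oxidative tissues, was listed at 0.0832 and 0.100004, with 5 and 6 reads. Of the exonic bases of LDHB, 33.4% lie in an exon of another gene, and the part of that overlap in its level was not tested.

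**Figure D2:**
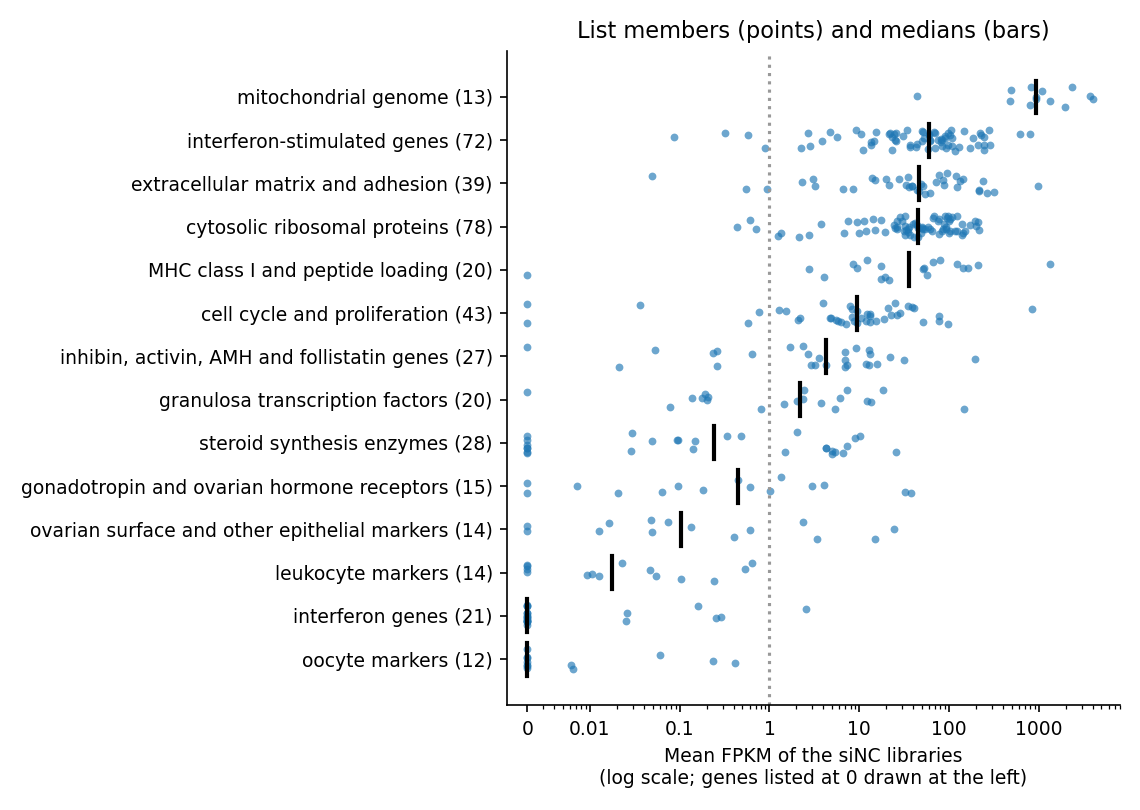
Mean FPKM of the siNC libraries (log scale) for each member of 14 gene lists, with the number of members in brackets, the list median as a bar, and a dotted line at 1 FPKM. The mitochondrial, interferon-stimulated, matrix and ribosomal lists have medians of 944, 59.3, 46.9 and 44.7 FPKM, while the medians of the leukocyte, interferon and oocyte lists lie at 0.0177, 0 and 0.

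The transcription factors listed for granulosa cells were mostly at moderate or low levels. Of 20 listed factors, 12 were at 1 FPKM or more (60%) and 4 at 10 or more (20%). These shares lie near the 52.5% and 22.2% of all genes, so the counts do not set the list apart. SOX9 and TCF21 of this list are also on the Sertoli list and on the theca and Leydig list. CITED2, a co-regulator that acts with WT1 and NR5A1 in the developing gonad, was the highest at 149 and 148 FPKM. NR5A1, or SF-1, the nuclear receptor that switches on steroidogenic genes, was listed at 18.1 and 18.5 FPKM (18.3 ± 0.262; ENSG00000136931, chromosome 9, 124481236 to 124507430, minus strand). FOXL2, the forkhead factor that maintains the granulosa fate, stood at 5.36 and 5.32 FPKM (5.34 ± 0.0288; ENSG00000183770, chromosome 3, 138944224 to 138947140, minus strand), 3.43 times below NR5A1 by the ratio of means.

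SOX9, the factor of the male counterpart of granulosa cells, the Sertoli cell, stood above FOXL2 at 7.56 and 7.11 FPKM, with a ratio of means of 1.37, and its lower library exceeded both FOXL2 values. The zinc-finger factors GATA6 and GATA4 were listed at 3.76 and 3.73, and at 2.28 and 2.53 FPKM. The orphan receptor NR2F2 was listed at 13.5 and 13.8 FPKM, and the runt-domain factors RUNX1 and RUNX2 at 12.2 and 11.9, and at 5.85 and 6.23. LHX9, a homeobox factor of the early gonad, stood at 2.13 and 1.93 FPKM.

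The steroid receptors were low. The progesterone receptor PGR was listed at 2.35 and 2.42 FPKM and the oestrogen receptor ESR1 at 0.784 and 0.844. ESR2, the oestrogen receptor typical of granulosa cells, was listed at 0.104 and 0.04998 FPKM, from 25 and 12 reads. WT1 stood at 0.189 and 0.1895 FPKM, and the other members under 1 FPKM were NR5A2 at 0.204 (mean), the immediate-early receptor NR4A1 at 0.201, TCF21 at 0.175 and NR0B1 at 0.137. EMX2 was listed at 0 in both libraries.

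The receptors for the gonadotropins, the pituitary hormones that drive follicle growth and ovulation, were listed at 0 in both libraries. FSHR (ENSG00000170820, chromosome 2, 48962157 to 49154537, minus strand) shares none of its exonic bases with another gene, and a count of 0 allows up to 3 reads, or 0.04696 FPKM in replicate 1 at its annotated length. For LHCGR the same limit was 0.0298 FPKM. These limits cover counting error only. AMHR2, the receptor of anti-Müllerian hormone, was listed at 0.0271 and 0.0136 FPKM, from 2 and 1 reads.

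Of the 15 hormone receptor genes, 6 were at 1 FPKM or more (40%). The highest was OXTR, the oxytocin receptor, at 37.7 and 38.3 FPKM, followed by IGF2R, which clears IGF2 and sorts lysosomal enzymes, at 32.05 and 33.1. The IGF receptor IGF1R stood at 3.78 and 4.32 FPKM and the insulin receptor INSR at 0.536 and 0.679. ADGRG1, an adhesion receptor, was listed at 3.24 and 2.75 FPKM, and the prostaglandin receptors PTGER4 and PTGER2 at 1.41 and 1.29, and at 1.03 and 0.988. The other 6 members, KIT, GPER1, GNRHR, PRLR, ADCYAP1R1 and AMHR2, had means from 0.00709 FPKM (ADCYAP1R1) to 0.452 (KIT).

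**Figure D3:**
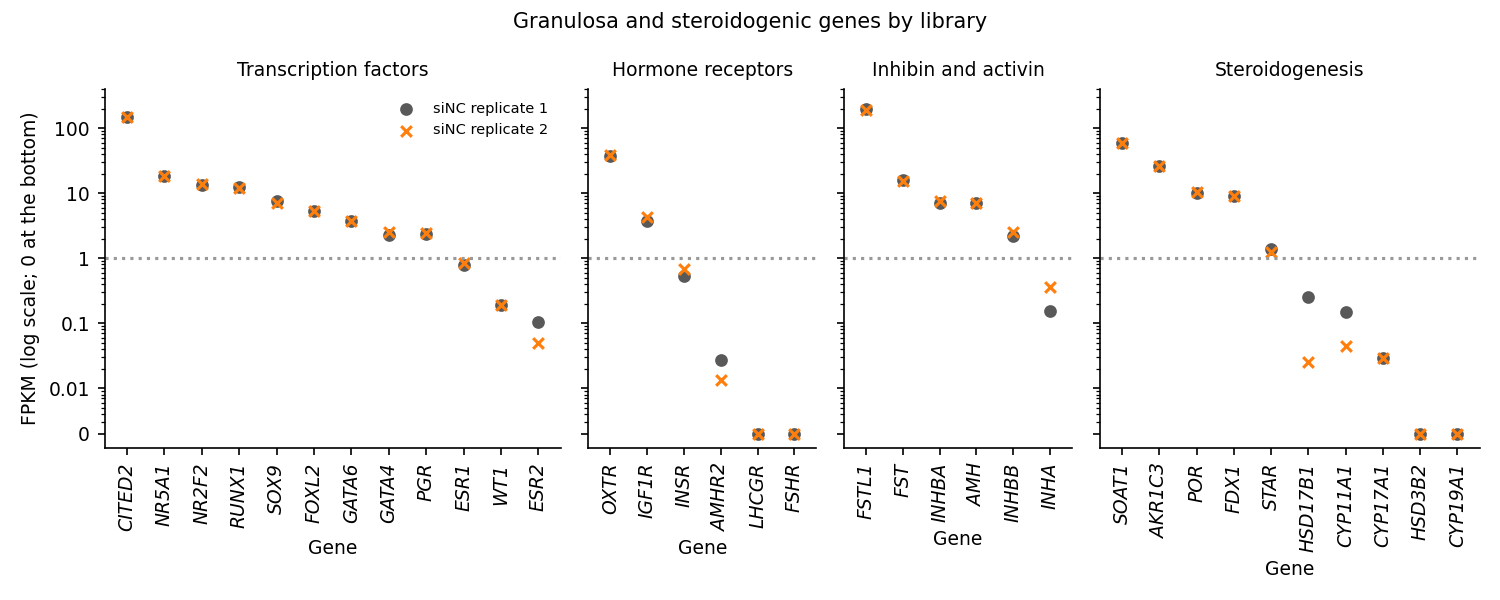
FPKM (log scale, 0 at the bottom) of granulosa and steroidogenic genes in siNC replicate 1 (circles) and siNC replicate 2 (crosses), with a dotted line at 1 FPKM. NR5A1 stands at 18.1 and 18.5 and FOXL2 at 5.36 and 5.32, while FSHR, LHCGR, HSD3B2 and CYP19A1 lie at 0 in both libraries.

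The inhibin and activin system was represented on the activin and follistatin side. Of 27 genes of the system, 20 were at 1 FPKM or more (74.1%) and 8 at 10 or more. Among the ligand subunits INHBA was listed at 6.99 and 7.56 FPKM and INHBB at 2.18 and 2.51. INHA, the alpha subunit that turns activin subunits into inhibin, stood at 0.152 and 0.365 FPKM, from 5 and 12 reads. Anti-Müllerian hormone, AMH, was listed at 6.96 and 6.94 FPKM, and BMP4 at 13.2 and 12.4.

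The binding proteins stood above the ligands. FST, follistatin, which neutralises activin, was listed at 15.7 and 15.6 FPKM, 2.15 times INHBA by the ratio of means. Its relatives FSTL3 and FSTL1 were listed at 31.4 and 32.2, and at 195 and 193 FPKM. FSTL1 ranked 73 and is a secreted glycoprotein with little activin binding.

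Receptors and signal carriers of the same family were all detected. The type I and type II receptors ran from 0.636 FPKM (ACVR1C) through 1.68 (ACVR2B), 3.18 (ACVR2A), 3.57 (ACVR1B) and 9.27 (ACVR1) to 22.3 (BMPR2), by their means. TGFBR1 and TGFBR2, the receptors of TGF-beta, were close to each other at 12.9 and 13.04, and at 12.9 and 13.3 FPKM, and their co-receptor TGFBR3 stood at 2.603 and 2.82. The signal carriers SMAD3, SMAD2 and SMAD4 were listed at means of 12.01, 6.97 and 6.96 FPKM, and BMPR1A and BMPR1B at 4.24 and 2.91. The remaining ligands were low: INHBE at 0.261, GDF9 at 0.234, BMP6 at 0.0525 and BMP2 at 0.02102 FPKM, with BMP15, an oocyte ligand, listed at 0.

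Other genes known from granulosa cells and ovulation were mixed, with 20 of 28 at 1 FPKM or more (71.4%) and 13 at 10 or more. ADAMTS1, a protease of the ovulating follicle, was listed at 87.8 and 87.8 FPKM, the gap junction gene GJA1 at 45.7 and 43.6, SERPINE2 at 41.2 and 39.98 and the proteoglycan gene VCAN at 26.9 and 27.7. KITLG, the ligand by which granulosa cells support the oocyte, stood at 20.9 and 20.3 FPKM. The EGF-like factors that relay the ovulatory signal were low except BTC: BTC stood at 10.5 and 8.71 FPKM, EREG at 2.19 and 2.45 and AREG at 1.96 and 2.18. PTGS2, the prostaglandin synthase of ovulation, was listed at 0.299 and 0.417 FPKM and DLK1 at 0. The last 6 genes named here lie outside the 8 highest of the list and were chosen after their values were seen.

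Markers of other cell types were checked beside the granulosa genes. None of 14 leukocyte markers and none of 12 oocyte markers reached 1 FPKM, and PTPRC, the common leukocyte antigen, was listed at 0.04501 and 0.0483 FPKM. The endothelial markers PECAM1 and CDH5 stood at 0.288 and 0.379, and at 0.0979 and 0.0409 FPKM, and 1 of 10 endothelial genes, TEK, passed 1 FPKM at 1.62 and 1.62. Of 14 epithelial markers 4 reached 1 FPKM: KRT7 at 23.2 and 25.2, KRT14 at 15.7 and 14.4, PAX8 at 3.58 and 3.204 and MUC1 at 2.42 and 2.34, while EPCAM stood at 0.633 and 0.593. Of 13 fibroblast and smooth muscle markers 9 reached 1 FPKM, led by COL1A1, COL1A2 at 122 and 116 and COL3A1 at 47.9 and 45.9. In bulk RNA, few cells of a type and little RNA per cell cannot be told apart.

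Of 9 theca and Leydig markers, 2 reached 1 FPKM, ACTA2 at 14.7 and 13.9 and STAR at 1.396 and 1.23. Of 10 Sertoli markers, 3 did: TSPYL1 at 9.71 and 9.75, SOX9 and AMH. Granulosa markers went both ways. FOXL2, NR5A1, GATA4 and AMH, the last also on the Sertoli list, stood above 1 FPKM. The factors WT1, ESR1, ESR2, NR5A2 and NR0B1 stood below it, and so did INHA, while FSHR and CYP19A1 were at 0. INHA, FSHR and CYP19A1 are markers of the differentiated granulosa cell.

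The steroidogenic pathway was present at its supply end and nearly unlisted at its core. Of 10 genes of cholesterol uptake and delivery, 9 were at 1 FPKM or more (90%). SOAT1, which esterifies cholesterol for storage, was listed at 59.8 and 59.7 FPKM (ENSG00000057252, chromosome 1, 179293714 to 179358680, plus strand). The lysosomal cholesterol exporters NPC2 and NPC1 stood at 42.3 and 38.2, and at 30.2 and 29.7 FPKM and the mitochondrial outer-membrane protein TSPO at 14.1 and 11.99. STARD3, a cholesterol transporter of the late endosome, was listed at 5.09 and 4.596 FPKM.

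STAR, which brings cholesterol into the mitochondrion and sets the pace of steroid synthesis, stood at 1.396 and 1.23 FPKM (1.31 ± 0.117; ENSG00000147465, chromosome 8, 38143649 to 38151265, minus strand). The HDL receptor SCARB1 was listed at 1.58 and 1.66 FPKM, the exporter ABCA1 at 1.29 and 1.52 and the lipase LIPE at 0.375 and 0.308.

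Of 28 steroid synthesis enzymes, 12 were at 1 FPKM or more (42.9%) and 2 at 10 or more (7.14%), beside 52.5% and 22.2% of all genes. The first step, side-chain cleavage by CYP11A1, was listed at 0.146 and 0.0439 FPKM, from 10 and 3 reads, while its electron donors FDX1 and FDXR stood at 9.11 and 8.89, and at 5.14 and 4.82. Of the exonic bases of CYP11A1, 28.96% lie in an exon of another gene. HSD3B1 and HSD3B2, which make progesterone, and CYP19A1, the aromatase that makes oestrogens, were listed at 0 in both libraries. For CYP19A1 (ENSG00000137869, chromosome 15, 51208057 to 51338610, minus strand), 0.5097% of whose exonic bases are shared, a count of 0 allows up to 3 reads, or 0.0176 FPKM in replicate 1.

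The enzymes of androgen and adrenal steroid synthesis were equally low. CYP17A1, which opens the androgen branch, was listed at 0.0293 and 0.0294 FPKM, from 2 and 2 reads, with 41.1% of its exonic bases shared. CYP21A2 stood at a mean of 0.1497 FPKM, CYP11B1 and CYP11B2 were listed at 0, and so were the sulfotransferase genes SULT2A1 and SULT1E1. HSD17B1, the oestrogenic dehydrogenase of granulosa cells, was listed at 0.254 and 0.0255 FPKM, from 30 and 3 reads, the widest split between the libraries in the list. Of its exonic bases, 34.8% lie in an exon of another gene.

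The enzymes that were listed at 1 FPKM or more act around the core. AKR1C3, a ketosteroid reductase, was the highest at 25.9 and 25.9 FPKM (ENSG00000196139, chromosome 10, 5035354 to 5107686, plus strand), and its near-identical neighbours AKR1C1 and AKR1C2 stood at 6.34 and 6.89, and at 5.11 and 5.51. AKR1C3 exceeded AKR1C1 by 3.92 times in the ratio of means, although reads could be split among these genes. POR, the electron donor of the microsomal P450 enzymes, was listed at 10.1 and 10.5 FPKM. The dehydrogenases HSD17B12, HSD17B7 and HSD17B4, which also act in lipid metabolism, had means of 7.22, 5.02 and 2.02 FPKM. The steroid sulfatase STS stood at 4.22 and 4.35 FPKM, the reductase SRD5A1 at 4.04 and 4.44 and HSD11B1, which activates cortisol, at 1.41 and 1.55.

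The other members below 1 FPKM were CYB5A at 0.477, SRD5A3 at 0.335, HSD11B2 at 0.09302, SRD5A2 at 0.0494 and HSD17B3 at 0.0289 FPKM by their means. The pathway that makes cholesterol itself was higher. Of 24 genes of cholesterol and fatty acid synthesis, 22 were at 1 FPKM or more (91.7%) with a median of 12.2 FPKM, led by ELOVL5 at 45.8 and 46.7 and SCD at 47.1 and 45.3, and MSMO1, a sterol oxidase, stood at 34.5 and 34.3.

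Interferon-stimulated genes were among the most abundant of all nuclear genes. Of 72 listed, 68 were at 1 FPKM or more (94.4%, beside 52.5% of all genes), 61 at 10 or more (84.7%, beside 22.2%) and 19 at 100 or more (beside 1.08%). Their median was 59.3 FPKM, and they held 3.45% and 3.27% of the summed FPKM. Of the 100 most abundant genes 12 were on the list, and 37 of the top 500, which is 7.4% of the top 500 and 51.4% of the list. Because the list was chosen with earlier results of these data known, these shares describe its members and are not a test.

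A core of the interferon-response element was searched in the promoters of the list, and a few stretches that hold it are shown here so that the element can be seen beside the levels. The search used GAAANNGAAA, the core of the element bound by the complex that holds STAT2 and IRF9, and its reverse complement TTTCNNTTTC, from 250 bases before to 50 after the start of each gene in RefSeq (GRCh38.p14). Capitals mark the matches, lower case the rest, and each sequence reads 5′ to 3′ along the gene's strand. The 250 bases before the start are given for the top of the list:
ISG15, chr1:1013247-1013496, plus strand: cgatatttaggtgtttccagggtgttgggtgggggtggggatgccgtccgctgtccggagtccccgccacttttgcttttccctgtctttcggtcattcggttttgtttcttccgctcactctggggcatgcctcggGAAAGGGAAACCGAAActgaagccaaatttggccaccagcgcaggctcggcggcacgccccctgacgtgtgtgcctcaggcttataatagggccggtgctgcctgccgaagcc
IFI6, chr1:27672193-27672442, minus strand: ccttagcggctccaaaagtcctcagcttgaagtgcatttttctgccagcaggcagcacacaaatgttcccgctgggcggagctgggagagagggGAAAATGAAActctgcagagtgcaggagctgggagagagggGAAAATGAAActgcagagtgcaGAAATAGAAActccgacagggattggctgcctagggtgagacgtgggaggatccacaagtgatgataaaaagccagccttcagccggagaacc
In ISG15 the matches begin 113 and 107 bases before the start and overlap, so the capitals run together, and in IFI6 they begin 156, 115 and 93 bases before it.

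For other members, 30 bases around the first match show the same core in either orientation:
IFIT1, chr10:89392497-89392526, plus strand: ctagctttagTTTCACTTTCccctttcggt
IFI44, chr1:78649761-78649790, plus strand: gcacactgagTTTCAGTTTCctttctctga
IFIT3, chr10:89327831-89327860, plus strand: agccgttaggTTTCATTTTCctcctcccaa
IFITM3, chr11:320893-320922, minus strand: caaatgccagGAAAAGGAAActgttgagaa
BST2, chr19:17405741-17405770, minus strand: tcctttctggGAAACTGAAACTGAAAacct
OAS3, chr12:112938321-112938350, plus strand: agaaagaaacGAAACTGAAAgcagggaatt
DDX60, chr4:168318821-168318850, minus strand: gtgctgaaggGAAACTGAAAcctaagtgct
CXCL10, chr4:76023699-76023728, minus strand: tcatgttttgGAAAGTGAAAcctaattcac
DDX60, OAS3, BST2 and CXCL10 were added after their values were seen, to show the letters in members of other levels, CXCL10 being among the lowest of the list.

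A promoter was found in the table for 15342 genes, 51 of them interferon-stimulated genes. The core was present in 33 of these 51 promoters (64.7%) and in 488 of all 15342 (3.18%). Of the 33, 16 had 1 match, 13 had 2 and 4 had 3 or more. Among the 153 genes above 100 FPKM with a promoter, 16 held the core (10.5%): 13 of the 16 interferon-stimulated genes among them (81.3%) and 3 of the 137 others (2.19%). The interferon-stimulated genes with a match had a median of 84.0 FPKM (from 0.571 to 805) and the 18 without had 43.7 (from 0.321 to 282), so their ranges overlapped. RSAD2, the fourth of the list, had no match in this window. None of the 17 granulosa transcription factors and none of the 22 steroid enzymes with a promoter held it, beside 3.18% of all. The search was added after the levels were seen, and a match is a description of letters.

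ISG15, a ubiquitin-like protein that is joined to other proteins during the interferon response, was the highest member. It was listed at 858 and 752 FPKM (805 ± 74.96; ENSG00000187608, chromosome 1, 1001138 to 1014540, plus strand) and ranked 18 of all genes. IFI6, a mitochondrial and endoplasmic reticulum protein that protects cells from apoptosis, stood at 652 and 584 FPKM (618 ± 48.6; ENSG00000126709, chromosome 1, 27666061 to 27672218, minus strand). Replicate 1 was the higher library for both.

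The IFIT genes encode proteins that bind foreign RNA ends and block its translation. IFIT1 was listed at 295 and 277 FPKM, IFIT3 at 255 and 236 and IFIT2 at 237 and 217. RSAD2, or viperin, an enzyme that makes a chain-terminating nucleotide, stood at 295 and 269 FPKM (ENSG00000134321, chromosome 2, 6865806 to 6898239, plus strand). IFI44 was listed at 245 and 246 FPKM and IFITM3, which blocks virus entry at endosomes, at 251 and 238.

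Other antiviral effectors of the list spanned a range of levels. MX1, a GTPase that traps viral nucleocapsids, was listed at 99.6 and 96.2 FPKM and its relative MX2 at 71.9 and 69.1. OAS1, OAS2 and OAS3, which make the 2-5A signal for RNase L, stood at 34.7 and 32.97, at 107 and 102, and at 61.5 and 59.3 FPKM. The surface tether BST2 stood at 94.5 and 85.4 FPKM, and the restriction factor genes SAMD9 and SAMD9L at 226 and 218, and at 109 and 107. IFI27 stood at 177 and 198 FPKM. The 4 members below 1 FPKM were GBP5 at 0.973 and 0.8302, the chemokine genes CXCL10 at 0.507 and 0.635 and CXCL11 at 0.251 and 0.391, and LAMP3 at 0.0787 and 0.09195. The genes in this paragraph were chosen after their values were seen. Some of these levels depend on the gene length used: with GENCODE release 29 lengths the means were 516 FPKM for IFITM3, 472 for IFIT3, 204 for MX1, 187 for OAS2, 132 for OAS3 and 89.1 for OAS1.

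The interferon ligands were almost unlisted. Of 21 interferon genes, 15 were at 0 in both libraries (beside 18.1% of all genes), and 1 passed 1 FPKM. That was IFNB1, interferon beta, at 2.602 and 2.49 FPKM (2.55 ± 0.0802; ENSG00000171855, chromosome 9, 21077105 to 21077963, minus strand), from 44 and 42 reads. IFNE was listed at 0.303 and 0.2697 FPKM, IFNA5 at 0.352 and 0.151 and IFNL1 at 0.192 and 0.128, from at most 9 reads in any library, and IFNL2 and IFNL3 had 1 read each in replicate 2 and 0 in replicate 1. IFNG, interferon gamma, IFNK, IFNW1 and 12 interferon alpha genes, IFNA1, IFNA2, IFNA4, IFNA6, IFNA7, IFNA8, IFNA10, IFNA13, IFNA14, IFNA16, IFNA17 and IFNA21, were listed at 0. The interferon alpha genes are near-identical, so reads matching several of them could be lost in counting.

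The receptor and signalling genes spanned a wide range, with 18 of 22 at 1 FPKM or more (81.8%). STAT2 was listed at 97.5 and 97.7 FPKM, while IRF9, its partner in the complex, stood at 2.75 and 2.95. Of the exonic bases of IRF9, 48.4% lie in an exon of another gene. IRF7, the factor that amplifies interferon transcription, was listed at 24.7 and 21.8 FPKM, IRF3 at 7.53 and 6.89, JAK1 at 18.95 and 19.9 and TYK2 at 5.86 and 5.66.

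IFNAR1 was listed at 5.82 and 5.76 FPKM and its partner IFNAR2 at 0.115 and 0.136, a ratio of means of 46.2. IFNAR2 has 83.2% of its exonic bases in an exon of another gene, against 0% for IFNAR1, and the part of that overlap in its level was not tested. The receptor of interferon gamma was represented by IFNGR1 at 16.7 and 17.2 FPKM and IFNGR2 at 5.26 and 4.09, and that of interferon lambda by IFNLR1 at 1.58 and 1.83.

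Sensors of foreign nucleic acid were partly listed, with 17 of 22 at 1 FPKM or more (77.3%). IFI16, a DNA sensor, was listed at 177 and 173 FPKM, IFIH1, or MDA5, a sensor of long double-stranded RNA, at 111 and 107, and EIF2AK2, or PKR, which stops translation on binding such RNA, at 69.2 and 71.1. ADAR, which edits double-stranded RNA, stood at 84.2 and 83.2 FPKM and the endosomal RNA receptor TLR3 at 26.4 and 24.9. The cytosolic DNA sensor CGAS was listed at 0.642 and 0.5598 FPKM and ZBP1 at 0.588 and 0.442, and TLR7, TLR8 and TLR9 at 0. These 5 genes were the members below 1 FPKM.

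Antigen presentation by MHC class I followed the same pattern of high levels. Of 20 genes, 19 were at 1 FPKM or more and 15 at 10 or more, with a median of 36.2 FPKM, and HLA-G, with 25.8% of its exonic bases in an exon of another gene, was listed at 0. B2M exceeded the highest heavy chain, HLA-E at 217 and 208 FPKM, by 6.22 times in the ratio of means. HLA-B was listed at 164 and 158 FPKM, HLA-C at 68.05 and 63.5 and the peptide transporter TAP1 at 58.7 and 55.5. The class I heavy chains are similar in sequence and vary between people, so their shares are uncertain. MHC class II was low, with 1 of 10 genes at 1 FPKM or more, HLA-DMA at 1.61 and 1.46.

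Cytokines were not high as a list, with 10 of 20 at 1 FPKM or more (50%). CSF1 was listed at 36.4 and 36.1 FPKM, IL18 at 19.05 and 18.1, LIF at 14.6 and 14.7, IL6 at 4.13 and 3.96 and CXCL8 at 2.82 and 2.11. CCL5, a chemokine that interferon and NF-kB induce, stood at 2.71 and 2.75 FPKM.

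The enzymes of O-GlcNAc, the sugar mark whose writer the series targets, were well above the detection limit in the control condition. OGT, the transferase, was listed at 22.4 and 23.4 FPKM and OGA, which removes the mark, at 64.1 and 64.8, a ratio of OGA to OGT of 2.86 and 2.78 in the libraries. GFPT1, the first enzyme of the hexosamine pathway that makes the donor sugar, stood at 16.2 and 16.2 FPKM and its relative GFPT2 at 0.357 and 0.421. The later enzymes UAP1, GNPNAT1, NAGK and PGM3 had means of 31.9, 10.6, 6.58 and 3.64 FPKM. Of the 8 genes, 7 were at 1 FPKM or more.

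Proliferation genes were listed beside the high CDKN1A. Of 43 cell cycle genes, 38 were at 1 FPKM or more and 21 at 10 or more, with a median of 9.57 FPKM. PCNA, the replication clamp, stood at 78.02 and 77.8 FPKM, cyclin D1, CCND1, at 78.97 and 76.1, the spindle factor TPX2 at 52.4 and 50.4 and cyclin B1, CCNB1, at 40.4 and 41.03. CDKN2A and CDKN2B, inhibitors of CDK4 and CDK6 that lie next to each other on chromosome 9, were listed at 0 in both libraries. So was their neighbour MTAP, a methionine salvage enzyme (ENSG00000099810, chromosome 9, 21802543 to 21937651, plus strand), whose limit at 3 reads was 0.0102 FPKM. Genes farther out on the same arm were listed: KLHL9 (ENSG00000198642, chromosome 9, 21329671 to 21335380, minus strand) at 15.4 and 16.1 FPKM and DMRTA1 (ENSG00000176399, chromosome 9, 22446841 to 22455740, plus strand) at 2.25 and 2.101. MTAP, KLHL9 and DMRTA1 were chosen after their values were seen, and genomic DNA was not analysed here. Of the 5 cell cycle genes below 1 FPKM, 1 had over 25% of its exonic bases in an exon of another gene. The part of overlap or of counting in these levels of 0 was not tested.

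Some stress-response genes were high as well. Of 16 genes of heat shock, immediate early response and stress, 13 were at 1 FPKM or more (81.3%, beside 52.5% of all genes). At 10 FPKM or more were 10 (62.5%, beside 22.2%) and at 100 or more 2, with a median of 16.0 FPKM. ATF4, the transcription factor of the integrated stress response, was listed at 301 and 286 FPKM, DDIT3, or CHOP, at 86.98 and 75.9, ATF3 at 65.3 and 66.3 and JUN at 91.9 and 87.8. FOS and FOSB, whose transcripts appear briefly after a stimulus, stood at 0.654 and 0.546, and at 0.6702 and 0.4298 FPKM. The letters TATAAA within the 50 bases before the start, searched on the gene's own strand, were in 7 of the 14 promoters found for this list (50%) and in 3.94% of all 15342. Other sets were searched too, with 11.1% for the matrix and adhesion list and 3.23% for the ribosomal list. By level, the share was 10.5% of genes at 0, 1.59% at 1 to 10 FPKM and 7.84% above 100 FPKM. The letters are shown for members of the stress list at 3 levels, with the box in capitals:
ATF4, chr22:39520520-39520549, plus strand: agagacgaagtcTATAAAgggccggcgggc
DUSP1, chr5:172771208-172771237, minus strand: ccagaggccgcaTATAAAcgcgctccccgg
FOS, chr14:75278783-75278812, plus strand: taaaacgcttgtTATAAAagcagtggctgc
DUSP1, a phosphatase of the stress kinases, stood at 81.9 and 78.4 FPKM, so the same letters preceded genes from 0.6002 to 293 FPKM by their means.

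Between the control libraries levels were close. Of the 10511 genes at 1 FPKM or more, 445 differed at least 1.2-fold (4.23%), 242 lower in replicate 2 (2.3%) and 203 higher (1.93%), and 90% of the genes lay between -0.19 and 0.18 on the log2 scale of replicate 2 over replicate 1. This compares 2 libraries and not conditions. The 5 largest differences with the lower value in replicate 2, among genes at 5 FPKM or more, were SPANXC at 20.1 and 11.7 FPKM, MT-ATP8 as given above, the interferon-stimulated gene RTP4 at 12.1 and 8.68, NCBP2AS2 at 7.24 and 5.2005 and FAM167B at 9.17 and 6.83. Those with the higher value there were HES1, a target of Notch, at 5.11 and 6.86 FPKM, MRPL41 at 12.96 and 16.4, S100A2 at 7.54 and 9.42, PDCL3 at 8.0003 and 9.898 and SMPDL3A at 7.25 and 8.85.

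The interferon-stimulated genes leaned to replicate 1 by a small amount. Of the 68 at 1 FPKM or more, 63 were lower in replicate 2, beside 48% of all genes, with a median of -0.07 on the log2 scale beside 0.00 over all genes. Only 3 differed at least 1.2-fold, RTP4, IFITM1 at 29.3 and 22.02 FPKM and IDO1 at 4.18 and 3.48. The 5 that were higher in replicate 2 were IFI27, IFI44, IFI44L, STAT2 and IRF9. With the values scaled to equal sums the count was 59 of 68, and the median of all genes moved to 0.02. Abundance was not matched in this comparison. When each library was sorted by its deposited FPKM, replicate 1 was higher at rank 99 (166 and 163 FPKM) and rank 494 (59.8 and 58.9). At rank 4100 replicate 2 was higher (11.05 and 11.08). The part of abundance in the lean of the list was not tested.

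The ribosomal protein genes leaned the same way, with 65 of 75 lower in replicate 2 and a median of -0.07, and so did MHC class I, with 16 of 19 and -0.06, the actin cytoskeleton genes, with 26 of 29 and -0.03, and the matrix and adhesion genes, with 29 of 36 and -0.03. In the other direction, 2 of 12 steroid enzymes and 14 of 38 cell cycle genes were lower in replicate 2, with medians of 0.05 and 0.02. The granulosa transcription factors did not lean by their count, with 7 of 12 lower and a median of -0.01, which turned to 0.00 and 5 of 12 under equal sums. Gene length moved with these differences. The shortest 2102 genes, of 3116 bases or fewer, had a median of -0.03 with 59.8% lower in replicate 2, and the longest 2101 genes, of 9092 bases or more, had 0.02 with 35.2% lower. Within those length classes, 12 of 13 interferon-stimulated genes among the shortest and 17 of 19 among the longest were lower in replicate 2, with medians of -0.16 and -0.04. The part of length in the lean was not tested.

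**Figure D4:**
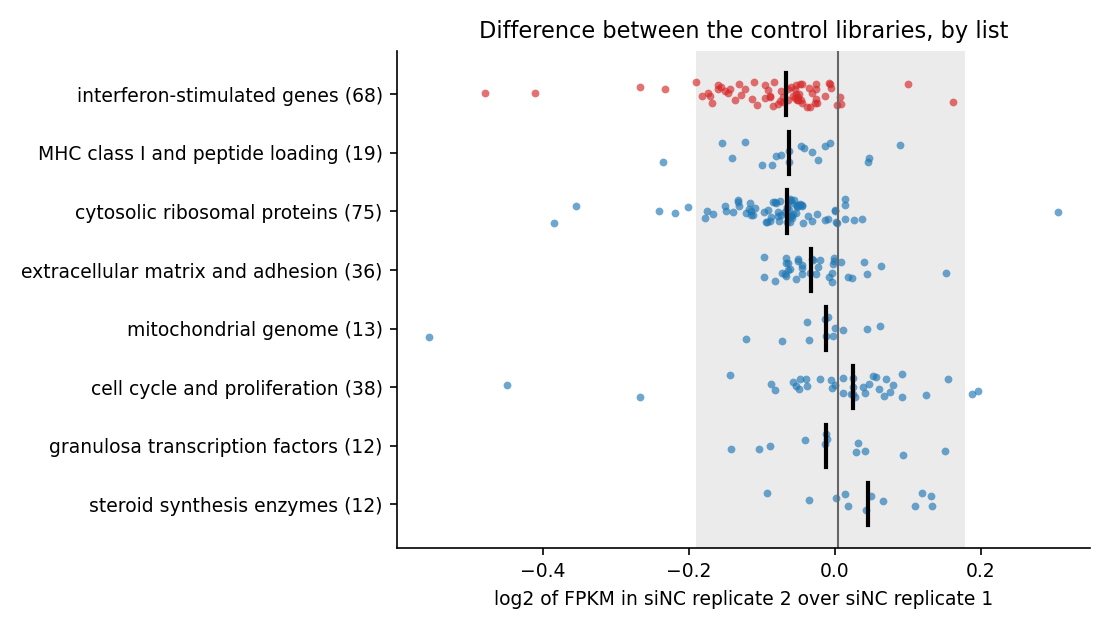
log2 of FPKM in siNC replicate 2 over replicate 1 for list members at 1 FPKM or more (points, number in brackets) with the list median as a black bar, the middle 90% of all 10511 genes as a grey band and their median as a grey line. The interferon-stimulated, MHC class I and ribosomal medians lie at -0.07, -0.06 and -0.07, inside the grey band from -0.19 to 0.18.

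Low listed values also went with large overlap between genes, so a level of 0 can be read only with the gene's surroundings. Exonic bases shared with an exon of another gene on either strand were counted in GENCODE release 29. Among the 11095 genes that share none, 49.7% were at 1 FPKM or more and 21.4% at 0, and among the 488 that share over 90%, 1.23% were at 1 FPKM or more and 83.6% at 0. The classes between did not fall steadily. At 0 to 10%, 10 to 25% and 25 to 50% shared, 67.9%, 63.7% and 44.2% were at 1 FPKM or more, and 5.81%, 7.18% and 12.2% at 0. At 50 to 75% shared, 18.7% were at 1 FPKM or more and 23.0% at 0. EEF1G, a translation elongation factor that all cells use, was listed at 0 in both libraries with 99.9% of its exonic bases shared. ALDOA, a glycolytic enzyme, was listed at 0.233 and 0.234 FPKM with 53.5% shared, and EIF4A1, the translation helicase, at 0.802 and 0.908 with 48.6%. Of the 16 steroid enzymes below 1 FPKM, 4 had over 25% of their exonic bases shared, HSD17B1, CYP11A1, CYP17A1 and HSD17B3, and of the 8 granulosa transcription factors below 1 FPKM, 1 had, TCF21. Of the 20 interferon genes and the 9 hormone receptors below 1 FPKM, none had. Over all 19852 genes matched to that release, 1008 shared 25 to 50%, 396 shared 50 to 75%, 199 shared 75 to 90% and 488 over 90%. Of these classes, 446, 74, 9 and 6 genes were at 1 FPKM or more. The list counts are small beside these and are not read as particular to the lists. The part of overlap in any level was not tested.

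**Figure D5:**
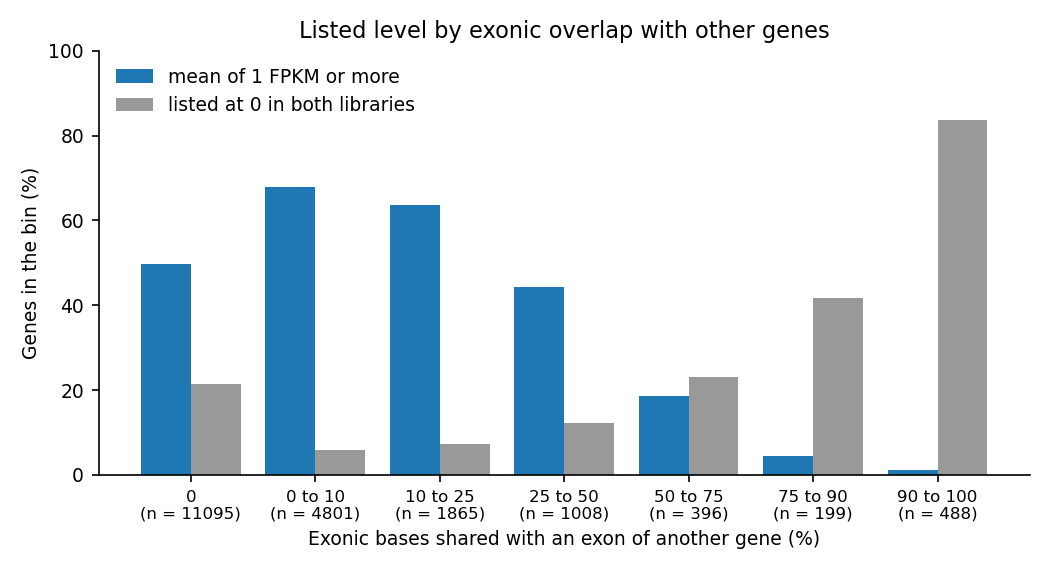
Share of genes with a mean of 1 FPKM or more (blue bars) and share listed at 0 in both siNC libraries (grey bars), in percent of the genes in each class of exonic overlap with other genes. The share at 1 FPKM or more is 49.7% in genes without overlap and 67.9% in the class of 0 to 10%. From there it falls to 1.23% in the class of 90 to 100%. The share at 0 is 21.4% without overlap, 5.81% in the class of 0 to 10% and 83.6% in that of 90 to 100%.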

How the data were processed

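Per the labels' protocols, TRIzol was used for RNA extraction and the NEBNext Ultra II RNA kit for library preparation. Per the submitters' processing notes, reads were trimmed with cutadapt 1.15 and aligned with HISAT2 to GRCh38. The counting program, annotation, strand setting and treatment of reads matching several genes were unknown (not given in the sources used here). For each library the authors deposited FPKM values of 20036 Ensembl gene identifiers, of which 20011 matched the gene name table and 19852 matched GENCODE release 29.

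Only the siNC columns were used. Levels are the deposited FPKM, averaged over both libraries, with no pseudocount. Reads were recovered as whole numbers within 0.0001 reads, using GENCODE release 29 lengths as a starting point, and account for 99.9% of each total. Where several lengths gave whole reads in both libraries, the length nearest to that release was taken. Read numbers of genes with few reads depend on that choice, since smaller or larger numbers in the same ratio can also fit. The recovery was tested on simulated data. Deposited lengths were within 5% of that release for 77.2% of genes at 1 FPKM or more, and over 2 times longer for 319, so the authors' annotation differed and levels of those genes depend on it. Limits from a count of 0 used 3 reads. No test was run. Coordinates are 1-based, on GRCh38.

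Genes named are the 25 most abundant, the 8 highest of each of 34 lists, all members of the granulosa factor, receptor, inhibin, steroid, interferon and O-GlcNAc lists, the 5 largest differences each way between libraries among genes at 5 FPKM or more, and fixed pairs. Some genes that these rules select are not reported here. Genes named outside these rules were picked with their values in view. Some genes are on several lists. The members and lists were chosen with earlier results of these data known. Promoter sequences come from RefSeq (GRCh38.p14). Python 3.11.15, pandas 2.3.3, numpy 2.4.6 and matplotlib 3.10.9 were used.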

Additional observations from a re-analysis of the deposited data

How the results depend on the processing

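Of 43 recomputed values over 7 results, 31 stayed within 1.5 times the count or within the spread between the libraries, and 12 moved. With 2 libraries, a share from a single library always lies within their spread, so those values could not move. For the counts by threshold, the TPM scale nearly repeats the threshold 5 times lower, with 12701 and 12695 genes at 1 or more. The 31 are therefore not independent checks. With thresholds 5 times higher, 6733 genes, 7 granulosa transcription factors and 7 steroid enzymes passed, and 40 interferon-stimulated genes did. The share of summed FPKM in the top 100 genes was 17.1% without the mitochondrial genome and 23.3% with GENCODE release 29 lengths. The mitochondrial share was 9.62% over genes at 1 FPKM or more, 2.001% of reads and 9.09% with release 29 lengths. Genes differing 1.2-fold between libraries numbered 3323 with no filter, 9 at 10 FPKM or more and 159 with a pseudocount of 1. Leaving out either library gave 10504 to 10506 genes at 1 FPKM or more, top 100 shares of 23.9% to 24.3%, mitochondrial shares of 9.54% to 9.58%, 12 granulosa factors, 12 steroid enzymes and 60 to 61 interferon-stimulated genes. The release 29 lengths and the removal of genes with over 25% exonic overlap were chosen after seeing the data, and the cause of these moves was not tested. No paired analysis was possible because a single group was described and no test was run. With 2 libraries the SD is itself uncertain, and genes of few reads, such as CYP11A1 or IFNB1, are limited by depth.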
